A study of Mus musculus with 6 samples.

Results

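The unfolded protein response (UPR) and the folding machinery of the endoplasmic reticulum (ER) are described here through 31 genes, taken by symbol from a written list. All 31 were found among the 35602 genes of the count table and among the 34714 genes of the tables for 1 further pair of libraries, and all 31 passed the filter on low counts that left 16269 genes for testing. The study sequenced RNA from mouse splenic CD4+ T cells stimulated through CD3 and CD28, to compare cells given MAPK13-IN-1, a small-molecule inhibitor of the kinase MAPK13, with cells given its solvent DMSO. There were 6 libraries, 3 per group. Replicates 2 and 3 of each group were wild type cells to which 17.1 µM inhibitor or 0.1 µl DMSO was added after day 1, by the sample labels, while the series description gives 72 h of stimulation in the presence of either, so the time of exposure is uncertain. The other pair is called replicate 1 here, by its order in the series, and its values were read as FPKM (fragments scaled by transcript length and library size). Its labels give the tissue, the cells and the agent, and the library preparation described differs. Nothing says that the replicates came from separate cultures or animals, so p-values measure the spread between these samples, which may be technical.

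The ER folds, glycosylates and disulfide-bonds the proteins that a cell secretes or displays. When folding falls behind, the sensors IRE1α (*Ern1*), ATF6 (*Atf6*) and PERK start the UPR: IRE1α splices the mRNA of the transcription factor XBP1, ATF6 is cut into a transcription factor, and both raise genes for chaperones, translocation and ER-associated degradation (ERAD), in which misfolded proteins leave the ER for the proteasome. Activated T cells enlarge their ER to make cytokines and surface receptors, and XBP1 is best known in lymphocytes for the secretory program of plasma cells.

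Library totals in the count table were 26874805 and 28487403 for DMSO replicates 2 and 3, and 33854760 and 32617702 for the same replicates with MAPK13-IN-1. Levels are given as CPM, counts scaled to a common library size with TMM factors (which set the bulk of genes level between libraries), and paired values follow this order of replicates. The summed level of the 31 genes was 5574 and 5439 CPM with DMSO and 5170 and 5059 CPM with MAPK13-IN-1. As a share of library totals the same genes took 0.535% and 0.519% of counts with DMSO and 0.542% and 0.526% with MAPK13-IN-1. The sum was thus slightly lower with the inhibitor after TMM scaling, and by library totals the groups overlapped.

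Of the 31 genes, 15 fell and 7 rose with MAPK13-IN-1 at a Benjamini-Hochberg adjusted p under 0.05 in the edgeR quasi-likelihood test over all genes tested, against 32.3% and 31.5% of all genes. The 15 lower genes were 48.4% of the members and the 7 higher ones 22.6%. Past 2-fold, 5 members were lower (*Xbp1*, *Hyou1*, *Calr*, *Sdf2l1* and *Derl3*), against 10.4% of all genes, and 0 were higher, against 13.0%. That 0 held also at an unadjusted p under 0.05 in edgeR and with DESeq2. The median log2 fold change of the members was −0.13, against 0.01 for all genes tested, and single members ranged from −1.71 to 0.69. Scaling by library totals moved the median of all genes to 0.14, and the number of members lower past 2-fold to 2, and upper-quartile scaling left 3 past 2-fold. The member median lay 0.14 below that of all genes under either scaling (a difference of −0.14 on the log2 scale), and the difference was −0.085 among genes with at least 10 counts in every library. Without DMSO replicate 3 the number of higher members was 4. In bulk samples, fewer cells of a type and less RNA per cell cannot be told apart.

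**Figure D1:**
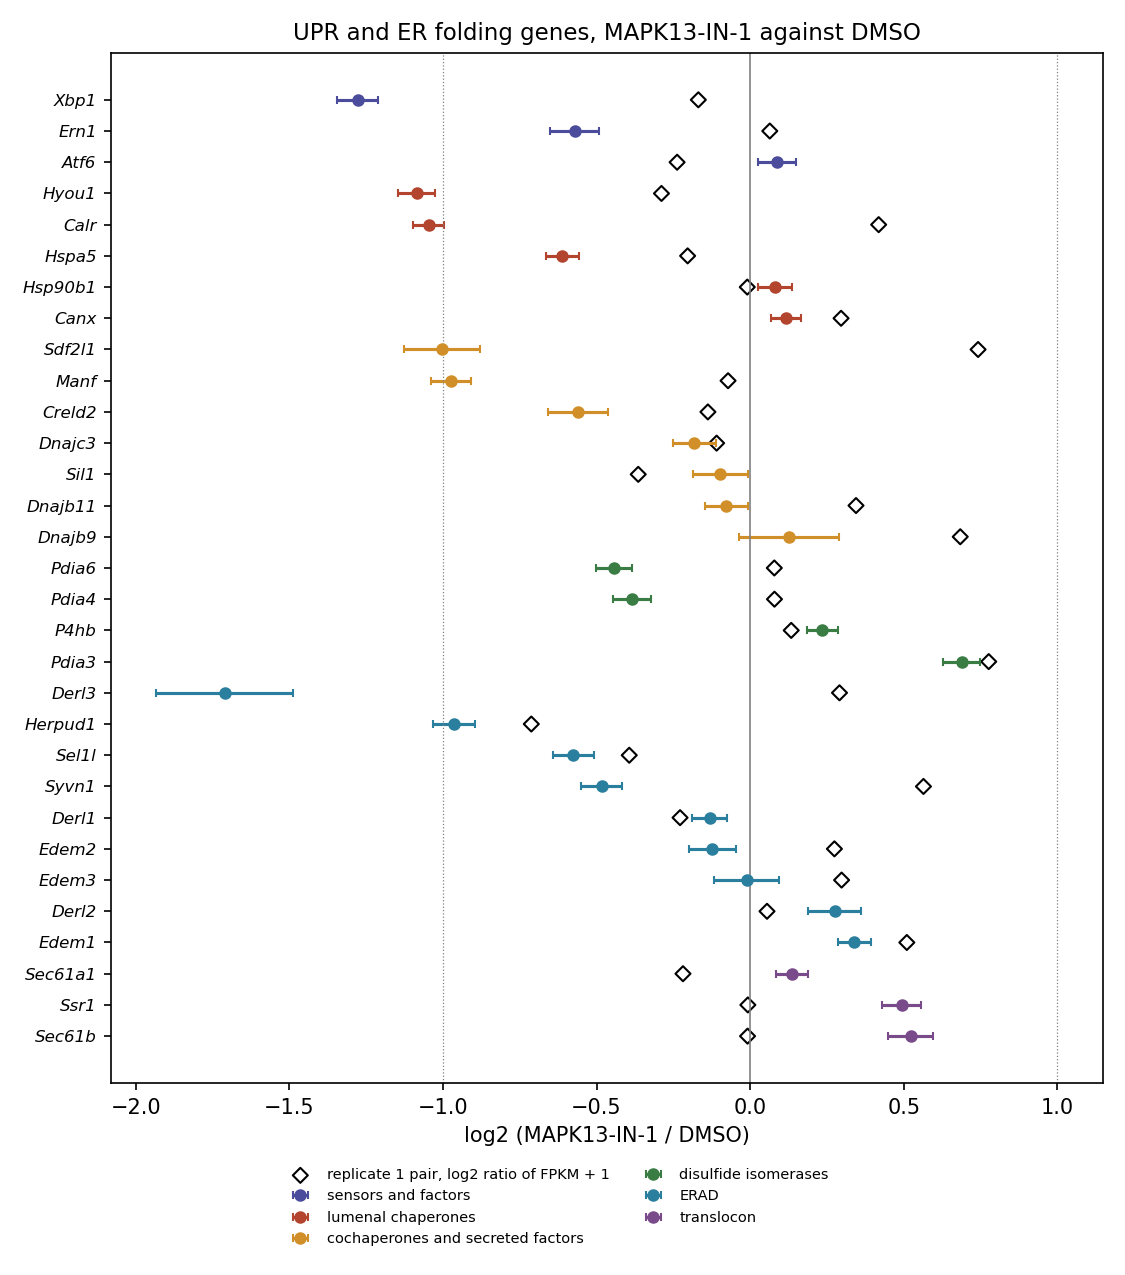
Log2 fold change of each of the 31 genes, MAPK13-IN-1 over DMSO (filled points with standard errors, 2 libraries per group, colored by role), beside the log2 ratio of FPKM + 1 in the replicate 1 pair (open diamonds, 1 library per group). The filled points run from −1.71 for Derl3 to 0.69 for Pdia3, and the dotted lines mark a 2-fold difference.

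Of the sensors and their factor, *Xbp1* and *Ern1* were lower and *Atf6* did not pass the test. *Xbp1*, on chr11:5520659-5525893 (plus strand, GRCm38), was at 99.2 and 103 CPM in the DMSO libraries and at 41.7 and 41.8 CPM in the MAPK13-IN-1 libraries. Both inhibitor libraries lay far below both DMSO libraries and close to each other. The log2 fold change was −1.28 ± 0.0664 (SE), with a Benjamini-Hochberg adjusted p of 1.64e-07 in the edgeR quasi-likelihood test. These values count all *Xbp1* reads together and do not separate the spliced mRNA, which encodes the active factor, from the unspliced form. *Ern1* (chr11:106394650-106487852, minus strand), the kinase and nuclease that splices it, was at 49.7 and 49.97 CPM with DMSO and 32.2 and 34.9 CPM with the inhibitor. The groups did not overlap, and the log2 fold change was −0.57 ± 0.0790 (SE), with a Benjamini-Hochberg adjusted p of 0.000112 in the edgeR quasi-likelihood test. *Atf6* was at 96.5 and 95.4 CPM with DMSO and 105 and 99.3 CPM with the inhibitor, a log2 fold change of 0.09 (Benjamini-Hochberg adjusted p = 0.236 in the edgeR quasi-likelihood test). The inhibitor libraries of *Atf6* lay above the DMSO libraries by little more than they differed from each other. It passed when libraries were scaled by upper quartile or by totals, at log2 fold changes of 0.17 and 0.21, settings that also raised the median of all genes.

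Among the lumenal chaperones, *Hyou1*, *Calr* and *Hspa5* were lower, and *Hsp90b1* and *Canx* did not pass. *Hyou1* (chr9:44379490-44392369, plus strand), a large Hsp70-type protein that exchanges ADP for ATP on BiP, was at 155 and 152 CPM with DMSO and 70.9 and 73.8 CPM with the inhibitor. *Calr* (chr8:84841850-84846934, minus strand), the soluble lectin chaperone calreticulin, was at 527 and 526 CPM with DMSO and 255 and 255 CPM with the inhibitor. For both genes the libraries of a group were nearly level and the groups stood apart. The log2 fold changes were −1.08 ± 0.0603 (SE) for *Hyou1* and −1.05 ± 0.0498 (SE) for *Calr*, with Benjamini-Hochberg adjusted p-values of 2.38e-07 and 1.04e-07 in the edgeR quasi-likelihood test. *Hspa5*, which encodes BiP, the main Hsp70 of the ER, had a smaller fall, at −0.61 ± 0.0533 (SE) on the log2 scale. *Canx* (chr11:50293961-50325673, minus strand), the membrane-bound partner of calreticulin in the lectin cycle, was at 490 and 476 CPM with DMSO and 527 and 520 CPM with the inhibitor. Its inhibitor libraries were the higher ones by a small margin, and it missed the threshold with a log2 fold change of 0.12 (Benjamini-Hochberg adjusted p = 0.0590 in the edgeR quasi-likelihood test). *Hsp90b1*, the ER form of Hsp90, had a log2 fold change of 0.08. Both were called higher in some of the other settings, at most at 0.24 for *Canx* and 0.21 for *Hsp90b1*, with scaling by library totals.

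Of the 7 cochaperones and secreted factors, 4 were lower and the other 3 did not pass. *Sdf2l1* (chr16:17130138-17132383, minus strand), a stress-induced partner of the J-protein *Dnajb11*, was at 27.6 and 25.96 CPM with DMSO and 11.8 and 14.9 CPM with the inhibitor. The groups stood apart, with a wider gap between the inhibitor libraries than for most members. Its log2 fold change was −1.003 ± 0.122 (SE), with a Benjamini-Hochberg adjusted p of 4.60e-05 in the edgeR quasi-likelihood test, just past 2-fold, −0.99 with DESeq2 and −0.84 without MAPK13-IN-1 replicate 2. *Manf* (−0.97), a small secreted protein that binds BiP, and *Creld2* (−0.56), another secreted product of the response, were also lower. *Dnajc3*, a J-protein also known as P58IPK, was lower by little, at −0.18 (Benjamini-Hochberg adjusted p = 0.0401 in the edgeR quasi-likelihood test). That call was lost in 8 of the 11 other settings, among them DESeq2 and leaving out DMSO replicate 2 or DMSO replicate 3, where the edgeR quasi-likelihood test gave Benjamini-Hochberg adjusted p-values of 0.264 and 0.124. *Dnajb9* (chr12:44205559-44210326, minus strand), a J-protein that binds IRE1α and a direct product of XBP1 activity, was at 12.3 and 9.05 CPM with DMSO and 12.8 and 10.4 CPM with the inhibitor. Its groups overlapped, and the log2 fold change of 0.13 had a standard error of 0.163 and turned to −0.087 without DMSO replicate 3 and −0.025 without MAPK13-IN-1 replicate 2. *Dnajb11* (−0.08) and the exchange factor *Sil1* (−0.10) also did not pass, and scaling by library totals turned their direction, to 0.048 and 0.029.

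The 4 disulfide isomerases split evenly in direction, and all passed the test. *Pdia3* (chr2:121413775-121438687, plus strand), known as ERp57, which works with calreticulin and calnexin on glycoproteins, was at 280 and 265 CPM with DMSO and 457 and 420 CPM with the inhibitor. Both inhibitor libraries were far above both DMSO libraries, with the largest rise of all members, a log2 fold change of 0.69 ± 0.0594 (SE), with a Benjamini-Hochberg adjusted p of 4.05e-06 in the edgeR quasi-likelihood test. *P4hb*, the founding protein disulfide isomerase, had a log2 fold change of 0.23 (Benjamini-Hochberg adjusted p = 0.00225 in the edgeR quasi-likelihood test). Without DMSO replicate 3 its call was lost, at a Benjamini-Hochberg adjusted p of 0.0928 in the edgeR quasi-likelihood test. *Pdia6* (chr12:17266545-17284770, plus strand), which also binds BiP and IRE1α, was at 143 and 137 CPM with DMSO and 102 and 104 CPM with the inhibitor. The groups did not overlap, and the log2 fold change was −0.44 ± 0.0590 (SE), with a Benjamini-Hochberg adjusted p of 8.60e-05 in the edgeR quasi-likelihood test. *Pdia4* had a log2 fold change of −0.38.

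**Figure D2:**
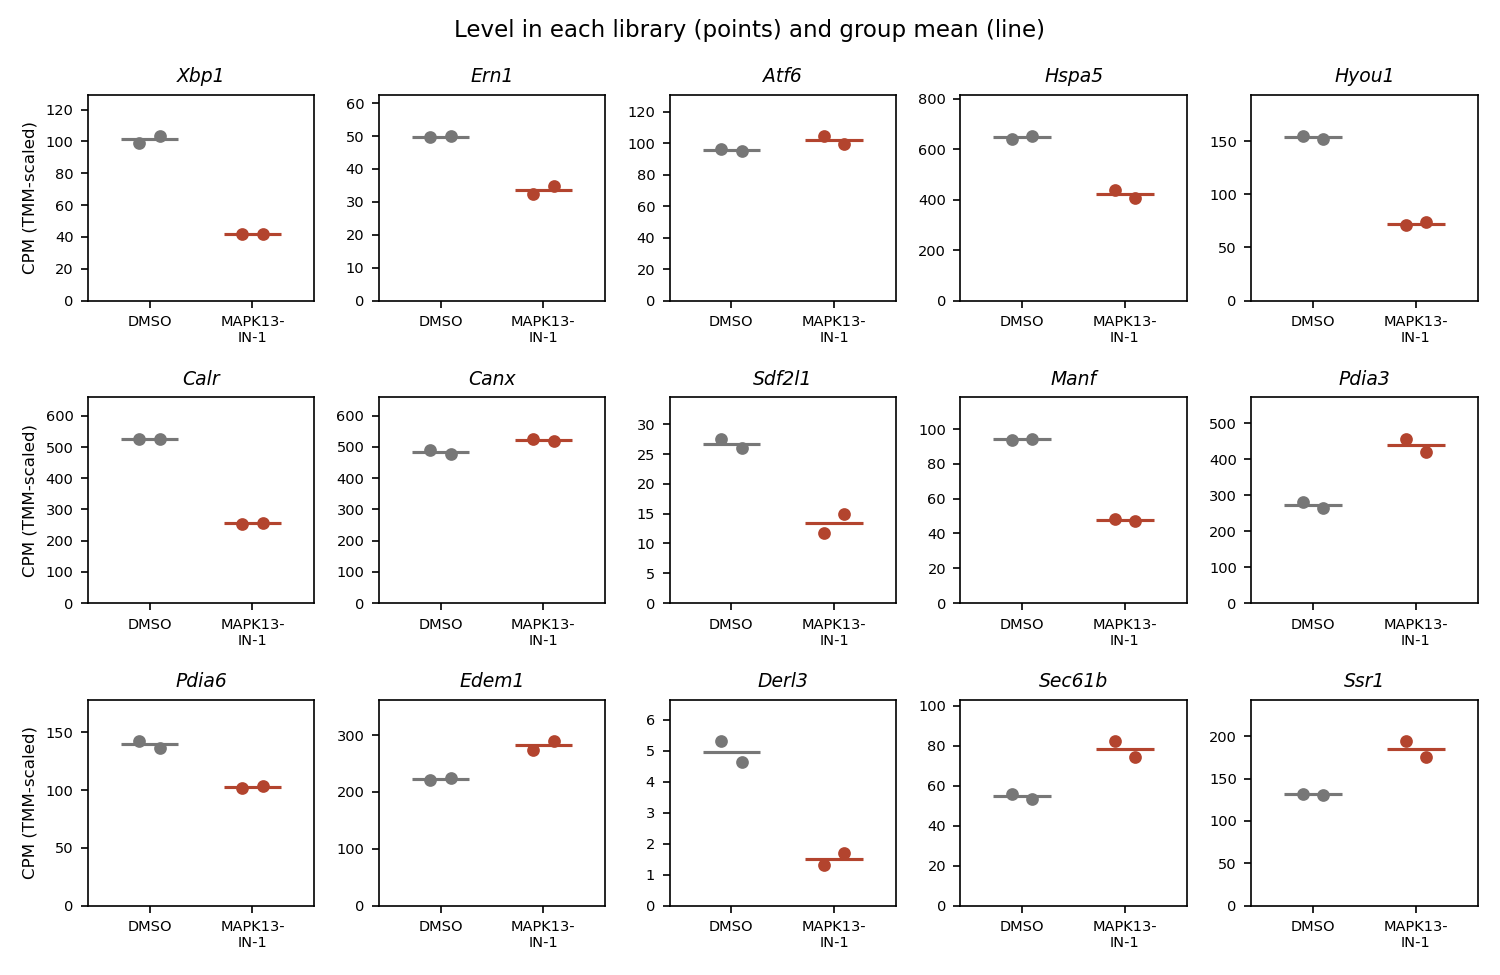
TMM-scaled CPM of 15 of the 31 genes in each of the 4 libraries of the count table (points), with the group mean as a line and every axis starting at 0. Xbp1, Hyou1, Calr, Sdf2l1 and Derl3 lie past 2-fold lower with MAPK13-IN-1, and Pdia3, Edem1, Sec61b and Ssr1 lie higher.

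Of the 9 ERAD genes, 4 were lower, 2 were higher and 3 did not pass. *Derl3* (chr10:75893413-75895941, plus strand), a derlin that marks plasma cells and is a strong XBP1 product there, was at 5.31 and 4.63 CPM with DMSO and 1.32 and 1.71 CPM with the inhibitor. The levels were low, resting on 137, 126, 47 and 58 counts, but the groups stood apart. Its log2 fold change, the largest fall of all members, was −1.71 ± 0.222 (SE), with a Benjamini-Hochberg adjusted p of 7.06e-05 in the edgeR quasi-likelihood test. The scaffold *Herpud1* (−0.96), the adaptor *Sel1l* (−0.58) and the ligase *Syvn1* (−0.48), of the ubiquitin ligase complex at the center of ERAD, were also lower. Their log2 ratios in the replicate 1 pair were −0.71, −0.39 and 0.56, so *Syvn1* rose there. In a further list of 32 ERAD genes 13 were lower and 8 higher, the latter with *Ube2j1* (0.25), *Fam8a1* (0.31) and *Herpud2* (0.28). The ubiquitin ligase complex as a whole was not tested. *Edem1* (chr6:108828641-108859356, plus strand), a lectin-type mannosidase that hands glycoproteins to this complex, was higher. It went from 221 and 225 CPM with DMSO to 274 and 289 CPM with the inhibitor. Its libraries did not overlap between groups, and its log2 fold change was 0.34 ± 0.0547 (SE), with a Benjamini-Hochberg adjusted p of 0.000322 in the edgeR quasi-likelihood test. *Derl2* was also higher (0.28), a call lost without DMSO replicate 3, where its log2 fold change was 0.20. *Edem2* (−0.12), *Edem3* (−0.01) and *Derl1* (−0.13) did not pass. *Derl1* was called lower without MAPK13-IN-1 replicate 2 (−0.14) and without MAPK13-IN-1 replicate 3 (−0.13). *Edem2* was called lower without MAPK13-IN-1 replicate 3 (−0.20). The direction of *Edem3* was not stable and turned in 7 of the 11 other settings, to 0.11 with library totals, where *Edem2* also turned, to 0.0022.

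All 3 translocon genes were higher. *Sec61b* (chr4:47474658-47483242, plus strand), a small subunit of the channel through which new proteins enter the ER, was at 55.8 and 53.5 CPM with DMSO and 82.4 and 74.6 CPM with the inhibitor. Every inhibitor library was above every DMSO library, and the log2 fold change was 0.52 ± 0.0739 (SE), with a Benjamini-Hochberg adjusted p of 0.000131 in the edgeR quasi-likelihood test. *Ssr1*, of the translocon-associated TRAP complex, had a log2 fold change of 0.49. *Sec61a1* (chr6:88503579-88518905, minus strand), the pore-forming subunit, was at 236 and 232 CPM with DMSO and 258 and 256 CPM with the inhibitor. The difference was small beside those of the other members called, with a log2 fold change of 0.14 (Benjamini-Hochberg adjusted p = 0.0416 in the edgeR quasi-likelihood test). The call was lost with no filter on low counts (Benjamini-Hochberg adjusted p = 0.0573 in the edgeR quasi-likelihood test). It was also lost without DMSO replicate 2 and without DMSO replicate 3, at log2 fold changes of 0.13 and 0.12.

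Summed by role, the lumenal chaperones gave 2334 and 2286 CPM with DMSO and 1828 and 1779 CPM with the inhibitor. The disulfide isomerases gave 1422 and 1338 CPM with DMSO and 1657 and 1620 CPM with the inhibitor. The translocon genes gave 423 and 417 CPM with DMSO and 535 and 506 CPM with the inhibitor. The sums of the other three roles were lower in both inhibitor libraries, from 245 and 249 CPM to 179 and 176 CPM for the sensors, from 311 and 303 CPM to 228 and 226 CPM for the cochaperones and from 839 and 846 CPM to 743 and 753 CPM for ERAD. Of the 6 role sums, 4 were thus lower and those of the isomerases and the translocon were higher in both inhibitor libraries. For 9 of the 31 members, exons overlap those of a gene on the opposite strand, over 10.3% of the exonic bases for *Hsp90b1*, 8.85% for *Manf*, 8.16% for *Sec61a1* and less for the other members. Whether the counting used strand is not given in the sources used here, so reads in those stretches cannot be assigned with certainty.

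Levels can be set roughly beside each other between genes once divided by exonic length. That length joined all annotated exons of a gene and was not that of the transcript present, so the order depends on the annotation. In CPM per kb of exon with DMSO, *P4hb* was highest at 303, followed by *Calr* at 241, *Hsp90b1* at 177 and *Hspa5* at 172, and *Derl3* was lowest at 3.76. With the inhibitor, *P4hb* was again highest at 356 CPM per kb, *Hsp90b1* stood at 188, *Pdia3* at 158 and *Sec61b* at 139 CPM per kb, and *Calr* at 117 and *Hspa5* at 113 CPM per kb. *Calr* and *Hspa5* therefore moved from above *Pdia3* and *Sec61b* to below them on this scale. In the replicate 1 pair they did not, since with the inhibitor *Calr* was at 334 FPKM and *Hspa5* at 214 FPKM, above *Pdia3* at 159 FPKM and *Sec61b* at 97.9 FPKM, and *P4hb* was not the highest there. *Xbp1* stood at 42.4 CPM per kb with DMSO, above *Atf6* at 13.2 and *Ern1* at 6.11, and at 17.5 CPM per kb with the inhibitor, against 14.1 and 4.11 for the sensors.

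**Figure D3:**
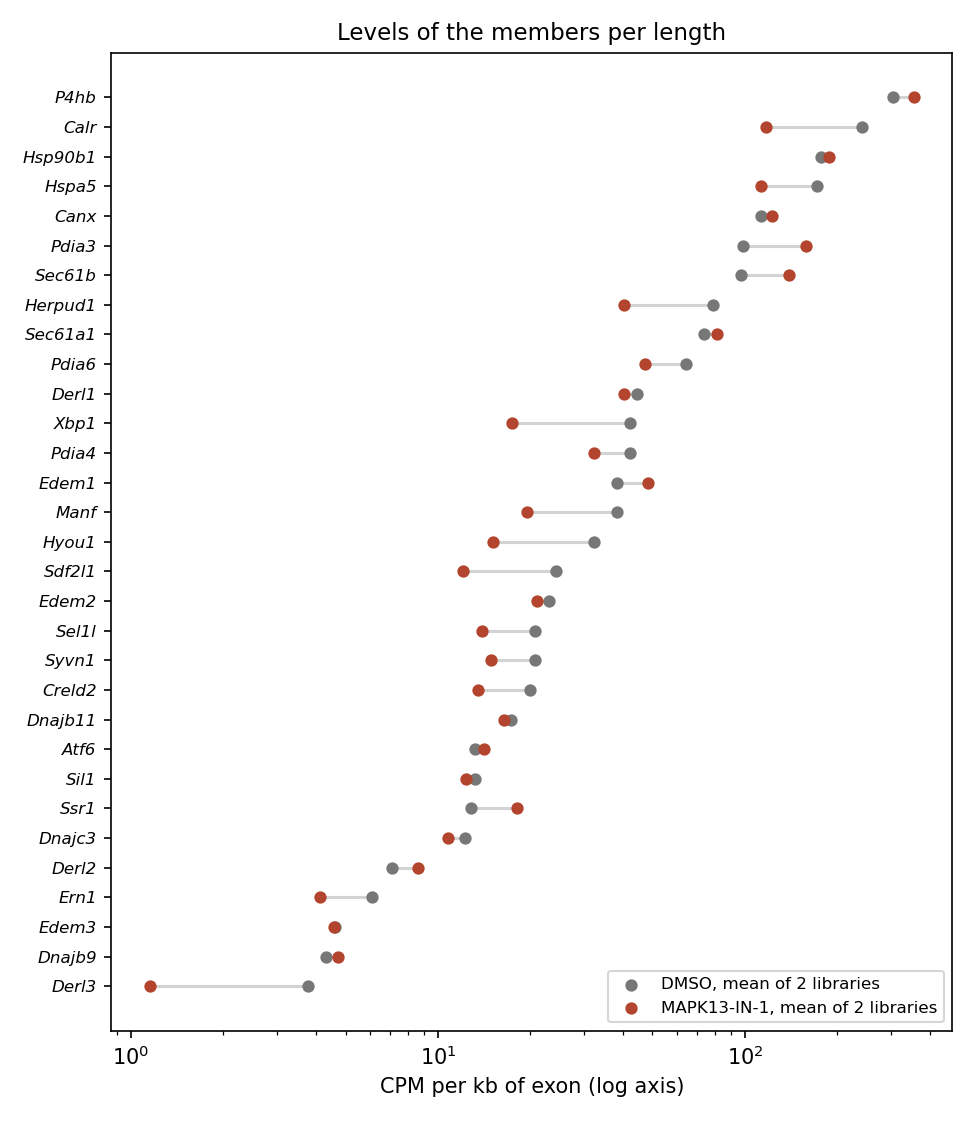
Mean CPM per kb of exon (log axis) of the 31 genes with DMSO (grey) and with MAPK13-IN-1 (red), 2 libraries per group, ordered by the DMSO level. P4hb is at the top in both groups, and Calr and Xbp1 have wide gaps between the groups.

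In the replicate 1 pair, with 1 library per group and no test, the picture was different for many members. Of the 30 members with a mean of at least 1 FPKM, 1 was lower past 1.5-fold (*Herpud1*) and 3 were higher (*Dnajb9*, *Sdf2l1* and *Pdia3*), on the scale of log2(FPKM + 1), against 7.57% and 15.9% of the 11071 genes past the same filter. Their median log2 ratio was 0.02, against 0.07 for those genes, and −0.042 once ratios were centred on the median gene. *Herpud1* went from 45.0 FPKM to 27.1 FPKM, and *Pdia3* was at 92.4 and 159 FPKM. Both moved as in the count table. *Xbp1* was at 39.0 and 34.5 FPKM, a log2 ratio of −0.17, and *Hspa5* at 246 and 214 FPKM, a log2 ratio of −0.20, in the same direction but by less. *Calr* went from 250 FPKM to 334 FPKM, and *Sdf2l1* was at 15.8 and 27.1 FPKM, with log2 ratios of 0.42 and 0.74. These 2 genes were past 2-fold lower in the count table and went the other way here. *Derl3*, at 0.788 and 1.19 FPKM, was under the filter. Of the 21 members called in the count table and past the filter here, 12 (57.1%) had the same direction in the pair, against 64.6% of the 7587 such genes in all. The 3 translocon genes were near level or lower in the pair, with log2 ratios of −0.22 for *Sec61a1*, −0.01 for *Sec61b* and −0.01 for *Ssr1*. In sum the chaperones went from 794 to 861 FPKM and the translocon genes from 178 to 168 FPKM, opposite to the count table, as did the cochaperones, from 247 to 258 FPKM. The sums of the isomerases (304 to 387 FPKM), the sensors (53.7 to 48.1 FPKM) and ERAD (194 to 193 FPKM) went the same way as there. All 31 members together went from 1771 to 1915 FPKM.

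Promoters of the members were read from RefSeq (GRCm38.p6), 250 bases before to 50 after the start of a gene, for elements through which ATF6 and XBP1 are known to act and for an element of the kind that ATF4 binds. The table held 25 of the 31 members, in 26 of its 32851 promoters, and not *Atf6*, *Hyou1*, *Sil1*, *Manf*, *Derl1* or *Sec61a1*. The element ERSE was searched on both strands as CCAAT and CCACG separated by 9 bases. It was present in 9 members (*Hspa5*, *Hsp90b1*, *Calr*, *Canx*, *Pdia6*, *Creld2*, *Dnajc3*, *Syvn1* and *Derl3*) and in 0.119% of all promoters. The element ERSE-II, searched as ATTGG and CCACG separated by 1 base, was present in *Herpud1* and *Dnajb11* and in 0.0365% of all promoters. The core TGACG followed by TGG was present in 0 member promoters and 0.676% of all promoters, and the ATF4-type element (TGATG, any base and AA) in *Herpud1* alone among the members and in 3.97% of all promoters. Of the 9 members with the first element, 7 were lower with the inhibitor and the other 2, *Hsp90b1* and *Canx*, did not pass, with a median log2 fold change of −0.48. Of those 7, 4 (*Calr*, *Pdia6*, *Syvn1* and, at levels under the filter, *Derl3*) were higher in the replicate 1 pair, and with library totals 6 of the 9 were lower and 2 higher. Of the 14 other tested genes with that element, 2 were lower and 5 were higher, with a median of 0.19, where 32.3% of all genes tested were lower and 31.5% higher. Of the 14 members with a promoter in the table and neither element, 5 were lower and 6 were higher, with a median of 0.06. The members were listed as UPR and ER folding genes, so holding ERSE more often than all promoters was no result of these data. A match is a description of letters and does not show that a factor binds there, and no link between the element and the fall was tested.

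Stretches before the start of 6 members, by the start in the promoter table, are shown, 5′ to 3′ on the strand of the gene, because they carry these matches in genes that fell and in genes that did not, with the matched letters in capitals. A match read on the opposite strand appears as CGTGG, 9 bases and ATTGG. *Hspa5* (chr2:34772020-34772048, plus strand, inside the gene as GENCODE draws it), *Calr* (chr8:84847065-84847103, minus strand), *Derl3* (chr10:75893232-75893270, plus strand) and *Herpud1* (chr8:94386367-94386397, plus strand, ERSE-II) belong to genes that were lower with the inhibitor. *Canx* (chr11:50325790-50325828, minus strand) and *Hsp90b1* (chr10:86705523-86705666, minus strand, with 2 matches in opposite orientations) belong to genes that did not pass the test.
Hspa5: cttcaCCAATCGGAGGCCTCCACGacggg
Calr: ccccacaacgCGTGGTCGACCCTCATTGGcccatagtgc
Derl3: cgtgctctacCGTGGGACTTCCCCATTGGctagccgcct
Herpud1: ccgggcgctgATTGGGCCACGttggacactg
Canx: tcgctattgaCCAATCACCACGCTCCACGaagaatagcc
Hsp90b1: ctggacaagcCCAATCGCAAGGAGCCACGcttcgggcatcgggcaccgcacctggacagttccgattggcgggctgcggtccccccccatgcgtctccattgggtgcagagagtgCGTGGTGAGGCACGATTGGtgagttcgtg

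Other genes of the pathway were counted from 6 lists, and 72 of the 185 genes tested were lower (38.9%) and 56 were higher (30.3%) in the same fit, near the 32.3% and 31.5% of all genes. The larger side turned with the scaling, to 62 lower and 68 higher with upper-quartile scaling and 60 lower and 73 higher with library totals. All genes tested turned likewise, to 4633 lower and 5823 higher with upper-quartile scaling and 4302 lower and 6176 higher with library totals. Leaving out DMSO replicate 3 lowered both numbers of the 6 lists, the higher one more. Among other ER folding and glycosylation genes 16 of 43 were lower (37.2%) and 14 higher (32.6%), with a median log2 fold change of 0.01. *Mogs* (−1.73), the glucosidase that begins the trimming of glycans, and the oxidase *Ero1a* (−0.72) were lower, and *Gfpt1* (0.78), of hexosamine synthesis, was higher. Other translocation genes were divided as well, with 10 of 29 lower (34.5%) and 9 higher (31.0%), *Srpr*, of the receptor for the signal recognition particle, at −1.33, *Ssr3* at 0.63 and *Tram1* at 0.70. The TRAP subunits did not move together, since *Ssr4* fell (−0.68), and in the replicate 1 pair *Ssr3* and *Tram1* had log2 ratios of −0.05 and −0.19.

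Other ERAD genes had 13 of 32 lower (40.6%) and 8 higher (25%), with *Ubxn6* at −1.27, *Erlin1* at −1.55 and *Fbxo6* at −1.45. Their log2 ratios in the replicate 1 pair were 0.11, −0.59 and 0.56. Of other sensors, proteases and factors, 10 of 20 were lower (50%) and 6 higher (30%), with *Atf6b* at −2.04, *Bax* at −0.75 and *Nfya*, a subunit of the factor that binds CCAAT, at −0.86. In the replicate 1 pair *Bax* was at 0.21 and *Nfya* at −0.70. *Atf6b*, the paralog of *Atf6*, was at 62.6 and 63.8 CPM with DMSO and 14.3 and 16.4 CPM with the inhibitor, while in the replicate 1 pair it was at 19.1 and 18.6 FPKM. In the list of the PERK and ATF4 branch, which holds PERK, eIF2α and ATF4 with genes downstream of them, 15 of 18 were lower (83.3%) and 1 was higher, with a median of −1.08. The higher gene was *Eif2ak3*, which encodes the sensor PERK, at 44.6 and 40.7 CPM with DMSO and 101 and 88.95 CPM with the inhibitor. Its groups stood apart, past 2-fold, with a log2 fold change of 1.15, and in the replicate 1 pair it went from 5.98 to 12.1 FPKM. In the same list *Atf5* (−2.72), *Trib3* (−2.61) and *Nupr1* (−4.43) had the smallest p-values, and in the replicate 1 pair its median log2 ratio was −1.07, where that of the 31 members was 0.02. ER-Golgi transport genes had 8 of 43 lower (18.6%) and 18 higher (41.9%), with *Preb* at −1.12, *Sec13* at −0.84 and *Kdelr1* at 0.73. The log2 ratios of these genes in the replicate 1 pair were 0.25, −0.16 and −0.15.

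Markers of cell types also differed between the groups, in a fit where 32.3% of all genes tested were lower and 31.5% were higher. In the 4 libraries of the count table each of 8 CD4 T cell markers had at least 924 counts, and 7 of the 8 were lower with the inhibitor. Their summed level was 1767 and 1798 CPM with DMSO and 945 and 1068 CPM with the inhibitor, with *Cd5* the most abundant in the DMSO libraries and *Cd4* in the inhibitor libraries. *Cd4* itself was at 275 and 276 CPM with DMSO and 267 and 283 CPM with the inhibitor, so its groups overlapped. All 12 B cell markers were present with at least 135 counts in each library, 7 of them higher and 3 lower with the inhibitor. They summed to 1172 and 1151 CPM with DMSO and 1325 and 1351 CPM with the inhibitor, led over the 4 libraries together by *Pax5*. In the replicate 1 pair the B cell markers summed to 54.2 and 37.6 FPKM beside 1265 and 1127 FPKM for the CD4 T cell markers. The B cell markers were thus far smaller beside them there, though FPKM is divided by length and CPM is not.

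Of the 7 plasma cell markers matched, which include *Derl3*, 6 were tested. Of these 3 were higher (50%) and 2 were lower (33.3%), against 31.5% and 32.3% of all genes tested. Their sum was 265 and 245 CPM with DMSO and 263 and 279 CPM with the inhibitor, led by *Mzb1* in every library, and *Tnfrsf17* was at 0 in 1 library of each group. *Derl3* thus fell while the groups overlapped in the TMM-scaled sum of the list that holds it. By library totals that sum did not overlap, at 255 and 234 CPM with DMSO and 276 and 290 CPM with the inhibitor. Erythroid markers were higher in 6 of 7 tested, from 7.83 and 7.53 CPM to 89.9 and 64.5 CPM in sum, led by *Hbb-bs* in both inhibitor libraries, with *Slc4a1* at 0 in DMSO replicate 2. Macrophage markers were higher in 4 of 6 tested, from 12.2 and 11.1 CPM to 39.5 and 32.4 CPM, led by *Cd68* in every library, with *C1qa*, *C1qc* and *Mrc1* at 0 in both DMSO libraries. Of the neutrophil markers only *Mpo* was tested, at 2, 2, 17 and 16 counts, and the list, with *S100a9* at 0 in all 4 libraries, summed to at most 1.15 CPM. *Mpo*, *C1qb* and *Slc4a1* passed the filter on low counts only through the inhibitor libraries, so that their direction was fixed by the filter. CD8 T and NK cell markers were lower in 3 of 5 tested, from 34.9 and 36.2 CPM to 10.5 and 14.3 CPM. They were led by *Nkg7* in the DMSO libraries and *Cd8b1* in the inhibitor libraries, with *Ncr1* at 0 in 3 libraries. In the replicate 1 pair their sum rose instead, from 17.3 to 124 FPKM, mostly through *Nkg7*, at 13.0 and 111 FPKM. The paper describes purification of CD4+ T cells from spleen with a commercial kit. The purity of these preparations could not be settled from the labels. The part of these cell types in the differences of the UPR and ER genes was not tested.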

How the data were processed

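RNA-seq of splenic CD4+ T cells was used. For replicates 2 and 3 the authors deposited raw counts per gene. The submitters' processing notes name fastp 0.21.0, HISAT2 2.1.0, StringTie 2.1.5 and DESeq2 1.30.1 with the build mm10. For the replicate 1 pair the authors deposited values that are not whole numbers, read here as FPKM, with HISAT2 named and no version. That unit was inferred: over 9137 genes, the ratio of counts to these values grew with exonic length with a slope of 0.875 on log2 scales. Its depth is unknown, so it entered no test.

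Counts were analysed with edgeR 4.0.16 in R 4.3.3: filterByExpr (minimum count 10, minimum total 15), TMM scaling and the quasi-likelihood test, 2 libraries against 2, with Benjamini-Hochberg adjustment over 16269 genes. Within a group the libraries differed by more than sampling noise (mean chi-square per gene 2.94 with DMSO and 8.82 with MAPK13-IN-1). The common biological coefficient of variation was 0.0659. FPKM ratios are log2 with a pseudocount of 1, which understates changes of low genes. Exonic lengths and coordinates came from GENCODE vM21 (GRCm38).

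The members and lists were chosen with earlier results of these data known. Values in every library are given for *Xbp1*, *Ern1* and *Atf6* and, in each role, for the members with the largest rise and fall and those past 2-fold. Other lists name up to 3 genes each by smallest p, apart from the genes given next. *Hspa5* and *Herpud1* in the pair, *Sec61a1* by library, *Atf6b* by library, *Eif2ak3*, *Ssr4* and the promoters printed were chosen after their values were seen. So were *Ube2j1*, *Fam8a1* and *Herpud2*, named as higher ERAD genes. Alternatives were RLE, upper-quartile and library-total scaling, other filters, a threshold of 0.01, DESeq2 1.42.0, a replicate block, each library left out in turn, and for the pair a pseudocount of 0.1, no filter and centred ratios.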

Additional observations from a re-analysis of the deposited data

How the results depend on the processing

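Of the 341 values of single members under 11 other settings, 301 kept direction and side of the threshold, 14 newly passed, 13 no longer passed and 13 changed sign, the last only in members not called. *Edem3* was at 0.0029 with RLE scaling, 0.070 with upper-quartile scaling, 0.11 with library totals, 0.034 with at least 10 counts in every library and 0.0028 with DESeq2, and between −0.16 and 0.11 with a library left out. *Dnajb11* was at 0.0035 with upper-quartile scaling and 0.048 with library totals, which also gave 0.029 for *Sil1* and 0.0022 for *Edem2*. *Dnajb9* ranged from −0.087 to 0.35 with a library left out. Members lower past 2-fold numbered 3 with upper-quartile scaling and 2 with library totals. The member median was −0.051 and −0.0065 there and −0.087 with at least 10 counts in every library. These scalings shift all genes, whose median was 0.09 with upper-quartile scaling and 0.14 with library totals. With a library left out, where a lone library is assumed to vary like the other group, the member median ran from −0.17 to −0.14, the higher members from 4 to 9 and the higher genes of the other lists from 37 to 62. In the replicate 1 pair the member median was 0.025 with a pseudocount of 0.1, 0.055 without the filter and −0.042 with centred ratios. Apart from the scalings and the omissions, the cause of these shifts was not tested.

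With the replicate number as a block, 15 members were lower and 7 were higher. Same-numbered libraries did not deviate together (correlation −0.0064 over 16269 genes), so the numbers were not taken as pairing. An adjusted p under 0.01 left 14 lower and 5 higher. With 2 libraries per group, precision is lowest for *Derl3* and *Dnajb9*, which had the fewest counts.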
